A study of Mus musculus with 4 samples.

Results

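Old long-term hematopoietic stem cells (LT-HSCs) were chosen by how open their chromatin was at 4 progenitor loci, Flt3, Cd34, Cd48 and Cdk6, and the cells at both ends of that order were compared. Of 1454 cells, 1309 were deep enough to be scored, and 522 cells formed the compared pools. The score was the share of a cell's counts that lay in 37 peaks overlapping the 4 genes or the 5000 bp upstream of them. Within each barcode set the scored cells were ordered into 5 bins, and the upper bin (high cells) was compared with the lower bin (low cells), 149 against 149 cells in set 1 and 112 against 112 in set 2.

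The cells were taken as those of the single-cell ATAC-Seq libraries of CLCA3A1high and CLCA3A1low LT-HSCs, 1 sample each. The C57BL/6JRj donor mice of these libraries were 22 to 28 months old. Within the LT-HSC gate (LSK CD34neg CD135neg, where LSK stands for Lin neg, Sca-1 pos and c-Kit pos), cells were separated with an antibody against the membrane-bound marker CLCA3A1. Each sample pooled 2500 cells from each of 4 mice, and 10000 cells were sorted per sample, so animals cannot be told apart and no sample has a replicate. Further samples of LT-HSCs of young mice (3 to 4 months) and of old mice were not used here. The cells carried 1 of 2 barcode suffixes, called sets 1 and 2, and no label pairs a suffix with CLCA3A1high or CLCA3A1low, so the 2 sets are shown side by side without a name and no test between conditions was possible. The sets shared 0 barcodes, 818 cells carried the first suffix and 636 the second, and 69 and 76 of them were left out as shallow. No doublet caller was run.

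The assay counts cuts of the Tn5 transposase in open chromatin. Flt3 encodes a cytokine receptor (CD135) of multipotent and lymphoid-primed progenitors. Cd34 encodes a sialomucin carried by short-term stem cells and progenitors in the mouse, and Cd48 a SLAM family ligand that stem cells lack and progenitors gain. Cdk6 encodes a G1 kinase that sets how readily a stem cell leaves quiescence. The gate removed cells with CD34 or CD135 protein on the surface, so the order describes chromatin in cells without these proteins, and protein was not measured in the deposited counts.

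The strongest peak outside the promoter of each of the 4 loci is shown to give the sequence behind part of the score. The 4 peaks held 13.6% of the score counts of high cells in set 1 and 19.9% in set 2, and the 4 promoter peaks 48.2% and 41.8%. The peaks are shown by their central 200 bases (GRCm38, plus strand, RefSeq genome sequence). Capitals mark matches, on both strands, to words for the PU.1 (GAGGAAGT), other ETS (CCGGAAGT), TEAD (CATTCCA), AP-1 (TGANTCA), RUNX (TGTGGTT), C/EBP (TTGCGCAA), IRF (GAAANNGAA), E-box (CAGCTG), HOX-MEIS (TGATTTAT) and CTCF motifs, and to AGATAAG for GATA factors. Matches of different words may overlap, and the PU.1 and other ETS words share their last letters.
Flt3, chr5:147366335-147366534: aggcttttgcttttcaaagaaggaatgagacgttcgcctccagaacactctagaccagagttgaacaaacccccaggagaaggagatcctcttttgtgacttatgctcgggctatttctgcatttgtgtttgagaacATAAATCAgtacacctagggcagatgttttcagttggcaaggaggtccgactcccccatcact
Cd34, chr1:194943638-194943837: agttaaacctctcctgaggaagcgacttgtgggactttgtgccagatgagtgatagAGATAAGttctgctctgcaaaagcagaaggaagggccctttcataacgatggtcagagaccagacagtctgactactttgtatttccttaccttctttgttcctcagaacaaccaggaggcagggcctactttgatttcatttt
Cd48, chr1:171699098-171699297: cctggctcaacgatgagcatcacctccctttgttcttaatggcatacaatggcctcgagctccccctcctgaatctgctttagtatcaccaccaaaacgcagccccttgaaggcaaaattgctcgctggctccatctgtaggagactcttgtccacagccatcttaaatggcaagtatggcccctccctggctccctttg
Cdk6, chr5:3502147-3502346: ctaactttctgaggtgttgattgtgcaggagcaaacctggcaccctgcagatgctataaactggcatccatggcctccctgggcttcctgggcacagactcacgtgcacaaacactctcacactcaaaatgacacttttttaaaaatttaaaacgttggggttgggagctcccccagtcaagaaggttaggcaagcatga
The Flt3 window lay in the gene body 34054 bp from the gene's start and held a HOX-MEIS word, which 0.809% of the 81631 peak windows of the same length held. The Cd34 window, 4919 bp from the start, held a GATA word (3.08% of windows). The Cd48 and Cdk6 windows, 17189 and 160762 bp from the starts of these genes, held none of the 11 words. Among all windows, 5.38% held a PU.1 word, 8.40% a RUNX word, 4.55% a CTCF word, 8.49% an AP-1 word, 2.64% a TEAD word, 0.907% the other ETS word, 7.59% an IRF word, 14.1% an E-box and 0.0576% a C/EBP word.

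The cells were selected on the score, so its values are a description. In set 1, high cells had scores of 365 to 1596 CPM (median 492; CPM is counts per 1000000 counts of the cell or pool), and all 149 low cells had a score of 0. A score of 0 was shared by 187 of 749 scored cells of set 1, so 38 further cells with the same score were left outside by file order, and the first cell below the high pool had 364 CPM. In set 2, high cells had 558 to 1762 CPM (median 729), the first cell outside had 557, low cells had 0 to 105, and the next cell above them had 106. A high cell had a median of 8 counts in the scoring peaks in set 1 and 10 in set 2, so a few cuts placed a cell.

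Flt3 and Cdk6, both on chromosome 5, gave most of the score. Flt3 (chr5:147330741-147400489, 12 peaks) gave 31.8% of the score counts of high cells in set 1 and 42.3% in set 2, and Cdk6 (chr5:3341485-3531008, 16 peaks) gave 52.5% and 41.7%. Cd34 (chr1:194938819-194961279, 5 peaks) gave 9.67% and 10.9%, and Cd48 (chr1:171682009-171705258, 4 peaks) gave 6.09% and 5.09%. Over all scored cells, Cdk6 had a count in 53.9% of cells of set 1 and 62.9% of set 2, Flt3 in 39.3% and 59.6%, Cd34 in 14.6% and 23.6%, and Cd48 in 12.4% and 17.5%. By share of cells with a count the order of the 4 loci was the same in both sets, and by share of the score counts Cdk6 led in set 1 and Flt3, narrowly, in set 2. The loci differ in their number of peaks.

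Within Flt3, the promoter peak and a pair of peaks in the gene body gave most counts in set 2. High cells of set 2 had 126 CPM at the promoter peak, 68.8 CPM at the peak 34054 bp into the gene and 59.9 CPM at the peak 59309 bp into it. In set 1 the same peaks had 59.1, 22.2 and 15.9 CPM. The Cdk6 promoter peak had 161 CPM in set 1 and 132 CPM in set 2, and its 15 other peaks each had at most 36.2 CPM. The Cd34 promoter peak had 38.6 and 49.8 CPM, and the GATA-word peak shown above had 9.23 and 31.4 CPM.

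Depth differed between the pools. In set 1 the median was 14239 counts per cell in the high and 9882 in the low pool, and in set 2 it was 12666 and 9999. The 3 middle bins were deeper than both ends, with medians of 15314 to 17307 counts in set 1 and 15159 to 17639 in set 2. Values with every cell thinned to equal depth, or with cells ranked within 5 bins of depth, are given below beside the results that moved with them. The pools held 2384548 and 1694028 counts in set 1, and 1687016 and 1424780 in set 2. Intervals are exact 95% intervals, which cover counting error only, and 88.7% of the counts above 0 were even because a fragment brings a pair of cuts, so the intervals are too narrow.

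Each scoring locus was then read in cells ranked by the other 3, so that its own counts did not choose the cells. Flt3 had 106 CPM in high and 79.3 CPM in low cells of set 1 (log2 difference 0.41, 0.11 to 0.73), and 173 and 142 CPM in set 2 (0.28, 0.01 to 0.55). Cd34 had 24.4 and 13.5 CPM in set 1 (0.81, 0.13 to 1.62) and 42.6 and 18.7 CPM in set 2 (1.14, 0.52 to 1.88). All 4 loci were higher in the high cells in both sets. Cdk6 had 142 and 123 CPM in set 1 (0.20, -0.04 to 0.45) and 190 and 132 CPM in set 2 (0.52, 0.26 to 0.79). Cd48 had 13.7 and 10.8 CPM in set 1 (0.31, -0.52 to 1.24) and 26.6 and 19.0 CPM in set 2 (0.47, -0.23 to 1.23), so its interval held 0 in both sets. A count at Cd34 was found in 14.1% of high and 7.38% of low cells of set 1, and in 25.9% and 8.04% in set 2.

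With every cell thinned to the depth of the shallowest scored cell before scoring, the values of all 4 left-out loci were above 0, but the counting interval held 0 for 5 of the 8. Flt3 then differed by 0.28 (-0.23 to 0.81) and 0.65 (0.22 to 1.11) on the log2 scale, and Cd34 by 0.96 (-0.06 to 2.13) and 2.02 (0.88 to 3.53). Cd48 differed by 1.54 (0.006 to 3.77) and 0.16 (-1.38 to 1.74). Cdk6 differed by 0.09 (-0.33 to 0.51) and 0.10 (-0.35 to 0.56). Thinning leaves few counts per locus.

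**Figure D1:**
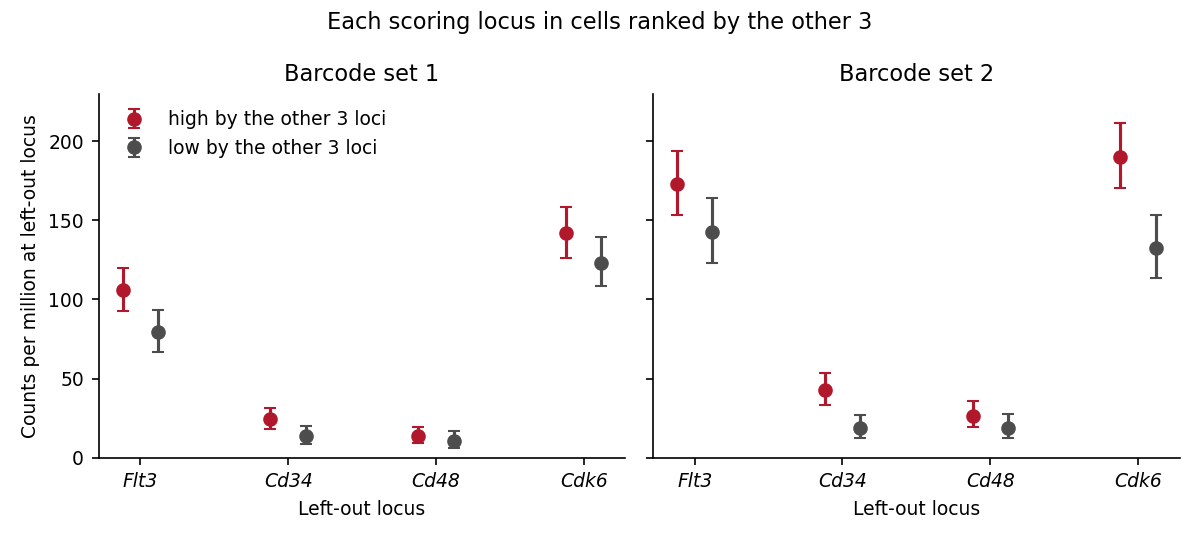
CPM (vertical axis) at each scoring locus (horizontal axis) in cells ranked by the other 3 loci, for barcode sets 1 and 2; points are pooled high cells (red) and low cells (grey) and bars are exact 95% intervals for counting error. The red point lies above the grey one in all 8 pairs, most clearly for Cd34 in set 2 (42.6 against 18.7 CPM).

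Ranking by 1 chromosome and reading the other gave an uneven result. Cells ranked by Flt3 and Cdk6 (chromosome 5) had 36.8 CPM at Cd34 and Cd48 in the high and 27.9 CPM in the low cells of set 1 (0.39, -0.12 to 0.93), and 64.3 and 30.1 CPM in set 2 (1.07, 0.56 to 1.66). Cells ranked by Cd34 and Cd48 (chromosome 1) had 214 and 187 CPM at Flt3 and Cdk6 in set 1 (0.19, 0.01 to 0.37), and 312 and 298 CPM in set 2 (0.07, -0.11 to 0.25). For that second ranking 566 of 749 cells in set 1 and 367 of 560 in set 2 had a score of 0, so file order chose all of the low cells. For the first ranking 225 of 749 cells in set 1 had a score of 0, more than the 149 low cells. File order therefore chose all of the low cells there too. In set 2 it was 106 of 560 cells, fewer than the 112 low cells.

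The whole of chromosome 5 moved with the score. With all peaks of the scoring loci left out, chromosome 5 held 6.71% of the counts of high cells and 5.88% of those of low cells in set 1 (log2 0.19, 0.18 to 0.20), and 6.41% and 5.88% in set 2 (0.12, 0.11 to 0.14). This was the largest difference of the 20 chromosomes in both sets. Thinned to equal depth it was 0.08 and 0.10, and with cells ranked within depth bins 0.22 and 0.06. Chromosome 5 then kept rank 1 in set 1 but had rank 2 (thinned) and rank 3 (depth bins) in set 2. Without all peaks within 5000000 bp of Flt3 and Cdk6 the differences were 0.17 and 0.11. Chromosome 1, which carries the other 2 scoring loci, differed by -0.02 in set 1 and 0.07 in set 2. Of 354 tested chromosome 5 loci, 145 (41.0%) were higher in high cells in both sets, against 12.2% to 31.3% on the other chromosomes.

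**Figure D2:**
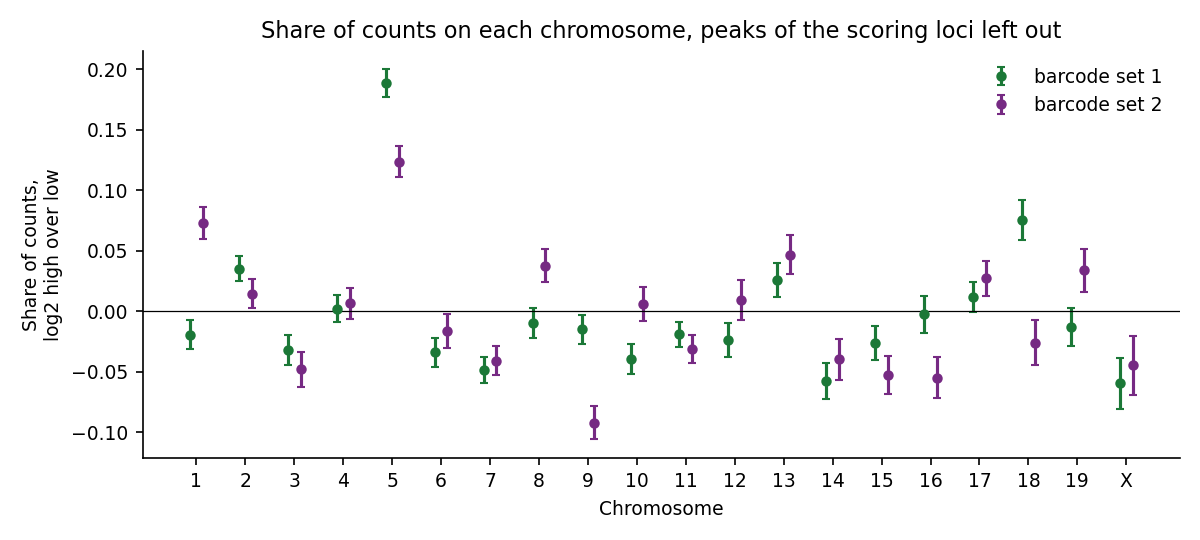
Log2 ratio of high over low cells (vertical axis) of the share of counts on each chromosome (horizontal axis), peaks of the scoring loci left out, with exact 95% intervals for counting error; green is set 1 and purple set 2. Chromosome 5 stands highest in both sets, at 0.19 and 0.12.

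A small number of cells held much of the chromosome 5 difference in set 1. A chromosome 5 share above 1.3 times the set's median was found in 17 of 149 high and 0 of 149 low cells of set 1, and in 6 and 2 of 112 cells of set 2. Without the 33 and 19 such cells among all scored cells, the chromosome 5 difference was 0.06 in set 1 and 0.10 in set 2. Per cell, the median chromosome 5 share was 6.21% in high and 5.95% in low cells of set 1, and 6.28% and 5.89% in set 2. When cells were ranked by Cd34 and Cd48 only, chromosome 5 differed by 0.01 in set 1 and -0.04 in set 2. Chromosome 1 then differed by 0.07 and 0.11 and was the second highest of the 20 chromosomes in both sets. The scoring loci and the chromosome they lie on therefore cannot be told apart in this ranking.

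Across all other protein-coding loci (gene body plus 5000 bp upstream), few moved alike in the 2 sets. Of 21951 loci (21947 without the 4 scoring loci), 17179 had a peak and 5494 had at least 200 counts over both pools of each set and were tested. In set 1, 85 loci (1.55% of those tested) were at least 1.5-fold higher in high cells and 45 (0.819%) at least 1.5-fold lower. In set 2 these were 142 (2.58%) and 201 (3.66%). In both sets at once, 19 loci (0.346%) were higher and 5 (0.091%) lower, and 3 passed the fold in opposite directions. The sign was the same in both sets for 53.0% of loci, and across loci, which are not replicates, Pearson's r was 0.117 and Spearman's rho 0.088.

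**Figure D3:**
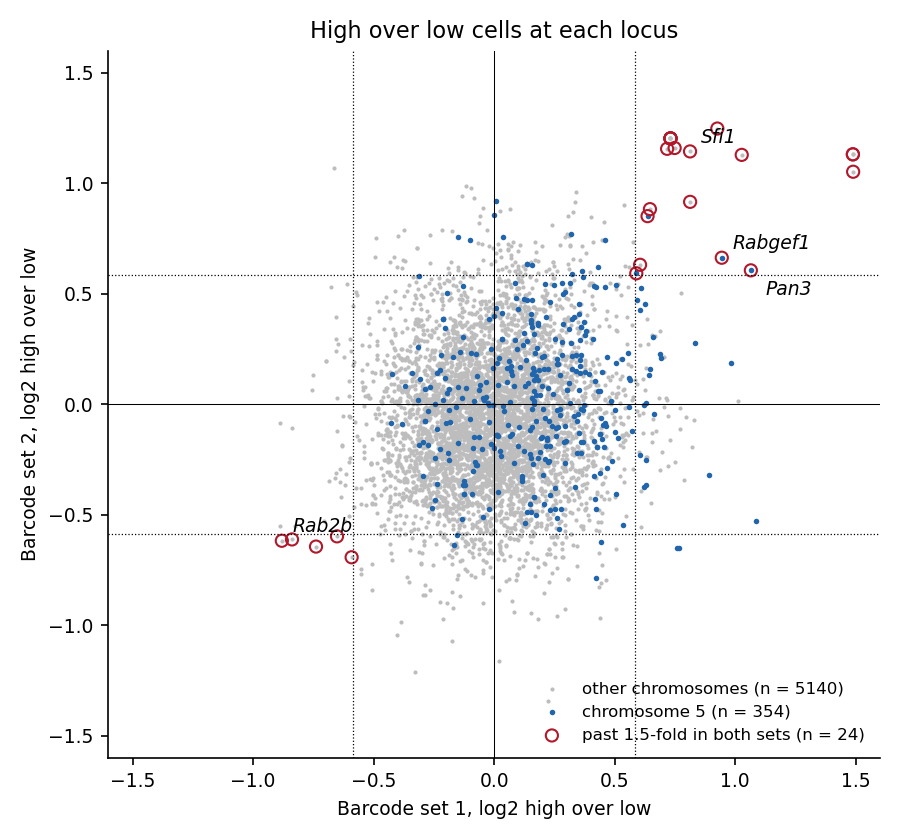
Log2 ratio of high over low cells in set 1 (horizontal axis) and set 2 (vertical axis) for 5494 loci; chromosome 5 loci are blue, dotted lines mark the 1.5-fold limits and red circles the 24 loci past it in both sets. Most of the cloud is round about 0, and chromosome 5 loci overlap it with a shift to the right (median 0.18 in set 1 and 0.03 in set 2).

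Of the 19 higher loci, 14 rested on 6 peaks in which 40.0% or more of the bases are soft-masked repeats, against a median of 10.5% over all peaks. They were 12 numbered gene models (names starting with Gm) on chromosomes 2, 9 and 14, and Sfi1 and Eif4enif1, which share a peak. Sfi1 (chr11:3131850-3193463), which encodes a centrin-binding protein, had 339 CPM in high and 192 CPM in low cells of set 1 (log2 0.81), and 318 and 143 CPM in set 2 (1.14). Gm10717 had 170 and 102 CPM in set 1 and 221 and 95.5 CPM in set 2 (0.73 and 1.203). In set 1, 1 cell gave 30.0% of the counts at Sfi1 in the high pool and 43.8% of those at Gm10717. Near-identical copies of such sequence share reads, so the position of these counts is uncertain. Thinned to equal depth, Sfi1 was -0.27 in set 1, against 0.81 unthinned.

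The other 5 higher loci had lead peaks with 2.04% (Tapt1) to 26.4% (Art3) soft-masked bases, and 4 of them were on chromosome 5. Rabgef1 (chr5:130171798-130214342), which encodes an exchange factor for the endosomal GTPase Rab5, had 111 and 57.3 CPM in high and low cells of set 1 (log2 0.94, 0.62 to 1.31) and 116 and 73.0 CPM in set 2 (0.66, 0.32 to 1.03). Tapt1 (chr5:44175154-44226626), which encodes a transmembrane protein, had 106 and 67.9 CPM in set 1 (0.64) and 127 and 70.2 CPM in set 2 (0.85). Pan3 (chr5:147430161-147548502), a subunit of a poly(A) deadenylase encoded beside Flt3, had 128 and 60.8 CPM in set 1 (1.07) and 140 and 91.9 CPM in set 2 (0.61). In set 1, 1 cell gave 19.3% of the Pan3 counts of the high pool. Without the top cell of each pool, Pan3 differed by 0.84 and 0.60. That the high pool lay above the low pool in both sets follows from how these loci were chosen. Art3 (chr5:92331827-92414628), of the ADP-ribosyltransferase family, had 119 and 78.5 CPM in set 1 (0.59) and 123 and 81.4 CPM in set 2 (0.59). Egln3 (chr12:54178981-54203860), the prolyl hydroxylase PHD3 of the oxygen-sensing pathway, had 100.2 and 65.5 CPM in set 1 (0.61) and 98.4 and 63.2 CPM in set 2 (0.63). Without the top cell of each pool, Art3 (0.56 and 0.55) and Egln3 (0.59 and 0.55) were under the fold in 1 or both sets.

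The calls depended on which cells were pooled. With cells ranked within 5 bins of depth, all 24 loci were tested again, and 0 of the 19 higher and 1 of the 5 lower loci were past the fold. Without the cells rich in chromosome 5 counts, 2 of the 19 and 2 of the 5 were. With each cell thinned to equal depth, or with each peak counted once per cell, 0 loci passed in either direction, but 543 and 639 loci then reached the count minimum, among them 3 and 0 of the 24. Thinned, Rabgef1, below the minimum, was at 0.96 and 0.64, past the fold in both sets, and Pan3 was at 1.39 and 0.51. Thinned, Tapt1 was at 0.31 in set 1 and Egln3 at 0.18 and 0.43. Under ranking by Cd34 and Cd48 alone, Rabgef1 was -0.05 and -0.12, Art3 was -0.03 in set 1, and Egln3 was -0.05 in set 2. Without Flt3 in the score, Egln3 was -0.23 in set 1. Across the 5 bins of the score, Rabgef1 climbed at every step in set 1, from 57.3 to 111 CPM, and Egln3 (63.2 to 98.4 CPM) and Pan3 (91.9 to 140 CPM) at every step in set 2, while none of the 3 did so in both sets. Tapt1 and Art3 had no such order in either set. The end bins are the pools that chose these loci, so only the order of the middle bins was free.

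The next 6 loci of the ranking had at least 40.1 CPM in every pool and stayed under the fold in 1 or both sets. They were Slc14a2 (log2 0.56 and 0.62), a urea transporter, Ubxn11 (0.54 and 0.62), Fam234b (0.54 and 0.90), Slc44a5 (0.56 and 0.53), a choline transporter-like protein, Wfs1 (0.61 and 0.53), the endoplasmic reticulum protein wolframin on chromosome 5, and Il6ra (0.52 and 0.58). Il6ra (chr3:89864059-89913196), the ligand-binding chain of the interleukin 6 receptor, had 108 and 74.97 CPM in set 1 (0.22 to 0.85) and 160 and 107 CPM in set 2 (0.29 to 0.88). Thinned to equal depth, Il6ra differed by 0.02 in set 1 and 0.41 in set 2, and ranked within depth bins by 0.50 and 0.46. Il6ra was the only 1 of these 12 named loci that also stood on a list of hematopoietic genes described below.

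The 5 lower loci rested on 3 promoter peaks. Atf5 (chr7:44812256-44816658), which encodes a bZIP transcription factor of the stress response and shares its peak with Il4i1, had 78.8 and 132 CPM in high and low cells of set 1 (log2 -0.74, -1.03 to -0.46) and 78.2 and 123 CPM in set 2 (-0.64, -0.99 to -0.32). Rab2b (chr14:52261759-52279545), a Rab GTPase gene that shares its peak with Tox4, had 67.5 and 125 CPM in set 1 (-0.88) and 80.6 and 124 CPM in set 2 (-0.62). Ttc39d (chr17:80207460-80217936) had 66.7 and 101 CPM in set 1 (-0.59) and 65.2 and 106 CPM in set 2 (-0.69). That all 3 promoters were less open in the high pool of both sets follows from how these loci were chosen. Atf5 was lower at every step from the lowest to the highest bin in set 1, and Rab2b at every step in set 2. Ttc39d had no such order in either set, and the end bins are the pools that chose these loci. Under ranking by Cd34 and Cd48 alone, Rab2b was 0.11 in set 2. Thinned to equal depth, Rab2b was at -0.32 and -0.06, Atf5 at -0.27 and -0.79, and Ttc39d at -0.12 and -0.36.

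The next 9 lower loci were Fbxo47 (-0.55 and -0.75), Pate2 (-0.83 and -0.55), Oxsr1 (-0.55 and -0.77), Serpini1 (-0.62 and -0.53), Slain1 (-0.51 and -0.72), Mnd1 (-0.51 and -0.84), Rab13 (-0.49 and -0.49), Usp3 (-0.47 and -0.55) and Dnajc17 (-0.58 and -0.47). They include Oxsr1, a kinase of the response to osmotic stress, Mnd1, which acts in meiotic recombination, and Usp3, a histone deubiquitinase. Serpini1, which encodes the protease inhibitor neuroserpin, had the most counts, with 138 and 212 CPM in set 1 and 154 and 222 CPM in set 2. Thinned to equal depth, Oxsr1 was at 0.34 in set 1 and -0.34 in set 2, Slain1 was at 0 in set 1, and the other 10 of the 12 named lower loci kept their sign. None of the 12 lay on chromosome 5.

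Promoter counts were lower in the high cells of set 2. Promoter peaks, within 1000 bp of a protein-coding start, held 51.9% of the counts of high and 56.1% of those of low cells in set 2, and 53.8% of both in set 1. Across the 5 bins of set 2, from low to high scores, the share was 56.1, 54.9, 53.1, 52.9 and 51.9%. The median cell of set 2 had 51.6% in high and 53.6% in low cells, and in set 1 53.1% and 53.6%. Over 65% of counts in promoters was found in 1 high and 9 low cells of set 2 and in 3 and 2 cells of set 1, and without all such cells the shares in set 2 were 51.8% and 54.1%. Thinned to equal depth, the difference in set 2 was -2.59 percentage points, against -4.23 unthinned. The difference between the sets was not tested.

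Words for transcription factors were compared by the share of counts in peaks that hold them. PU.1, encoded by Spi1, is the ETS factor that drives lymphoid and myeloid fates and binds a purine-rich word, and RUNX1 is the factor that establishes definitive hematopoiesis. Over whole peaks, PU.1 words lay under 17.4% of counts in high and 17.2% in low cells of set 1 (log2 0.02), and 18.6% and 17.9% in set 2 (0.06). None of the 11 words differed by more than the largest difference of the same words read backwards, 0.07 in set 1 and 0.12 in set 2.

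In the central 300 bp of peaks outside promoters, a choice made after seeing the data, set 2 showed more. PU.1 words lay there under 8.47% of counts of high and 7.37% of low cells in set 2 (log2 0.20, 0.18 to 0.22), and under 6.82% and 6.61% in set 1 (0.05, 0.03 to 0.06). The share in set 2 climbed over all 5 bins, at 7.37, 7.52, 7.68, 8.05 and 8.47%, and the median cell went from 7.46% to 8.45%. In set 1 the 5 bins had 6.61, 6.40, 6.61, 6.55 and 6.82%, without such an order. RUNX words lay under 13.8% and 12.4% of counts in set 2 (0.15, 0.14 to 0.16) and 12.4% and 12.2% in set 1 (0.02, 0.01 to 0.03). CTCF words, bound by the factor that anchors chromatin loops, went the other way in set 2, with 3.596% in high and 3.97% in low cells (-0.14, -0.17 to -0.12), and 4.13% and 4.17% in set 1 (-0.01).

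In set 2 the PU.1 difference was larger than the largest one of the words read backwards, which was 0.17. The RUNX and CTCF differences were not. That largest one was the rare C/EBP word, and the backward RUNX word differed by -0.0003. The backward CTCF word had no value in these distal centres, thinned or not, so it is missing from all of these limits. Over whole peaks it was the largest backward word, at -0.07 in set 1 and -0.12 in set 2. Thinned to equal depth, the largest backward word of set 2 was 0.10. PU.1 (0.11), RUNX (0.14) and CTCF (-0.16) were then all past it. In set 1 the PU.1 difference of 0.05 was no larger than its largest backward word, 0.05, and only the rare C/EBP word passed it (0.09, -0.07 to 0.25). The PU.1 difference was above 0 in both sets under each of 15 other rankings or cell choices, with values of 0.02 to 0.08 in set 1 and up to 0.23 in set 2. The lowest value of set 2, 0.003, came from ranking by Cd34 and Cd48 alone. Without Flt3 in the score the difference of set 2 was 0.10, and thinned to equal depth it was 0.11. In the centres of promoter peaks, PU.1 words differed by -0.01 in set 1 and 0.11 in set 2. TEAD words, the sites of the partners of TAZ, differed by -0.03 and -0.04 in the same distal centres, GATA words by -0.01 and -0.04, AP-1 words by -0.03 and -0.02, and IRF words by -0.02 and -0.01.

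**Figure D4:**
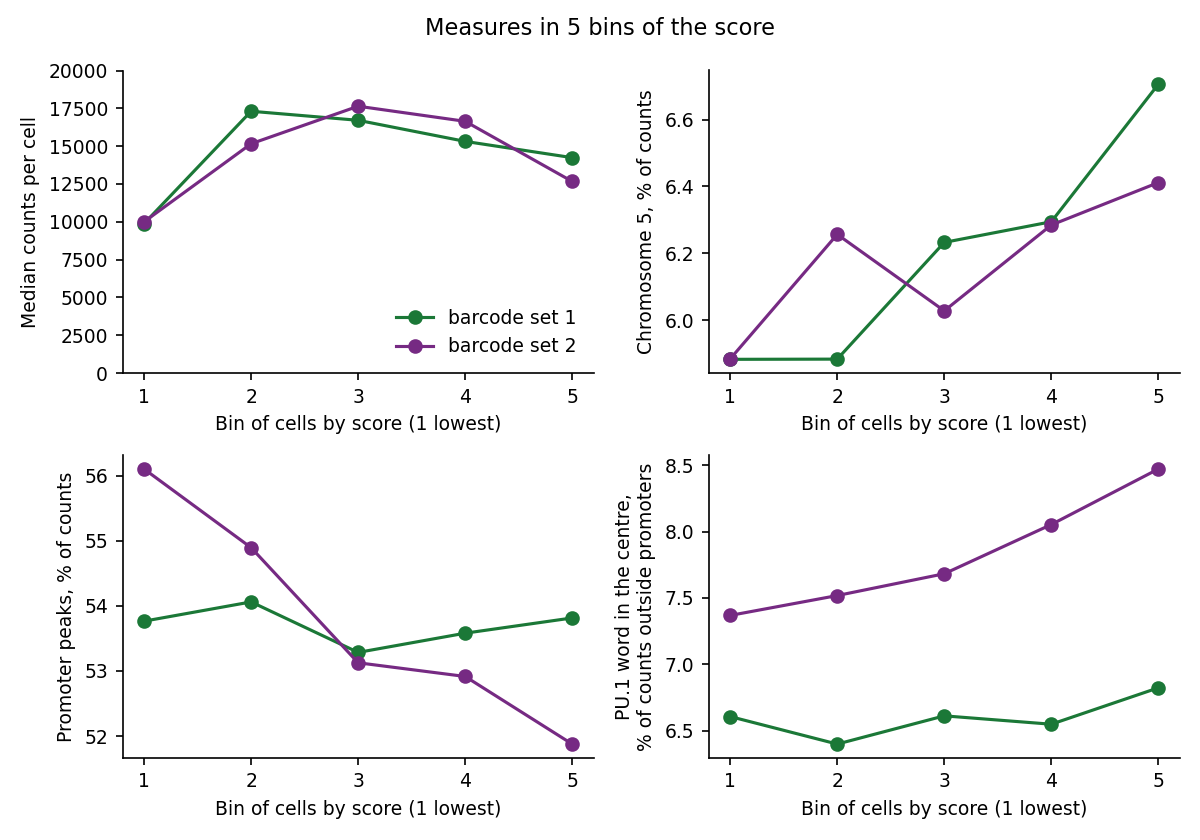
Median counts per cell, chromosome 5 share, promoter share and PU.1 word share (vertical axes, the last 3 in % of counts) in 5 bins of cells by score (horizontal axis, 1 lowest), green for set 1 and purple for set 2. Depth peaks in the middle bins, the promoter share drops from 56.1% to 51.9% and the PU.1 share climbs from 7.37% to 8.47% in set 2, and neither has that order in set 1.

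Lists of genes known from hematopoiesis were then read as sums over their members. No tested member of any of the 17 lists was at least 1.5-fold higher or lower in both sets, against 0.346% and 0.091% of all tested loci. Macrophage markers had a lower sum, by -0.28 (-0.45 to -0.12) in set 1 and -0.26 (-0.46 to -0.07) in set 2. Other progenitor surface genes were the only list with both counting intervals above 0. Their sum was 626 CPM in high and 534 CPM in low cells of set 1 (log2 0.23, 0.11 to 0.35). In set 2 it was 922 and 794 CPM (0.22, 0.10 to 0.33). Part of this sum was Il6ra, named above for its rank, with 108 and 74.97 CPM in set 1 and 160 and 107 CPM in set 2. Of the list's 5 tested members, 2 were higher in both sets and 1 lower in both, and over all tested loci 1226 were higher and 1684 lower in both of 5494. Its 5 tested members had a median log2 difference of 0.41 in set 1, where the median of all tested loci was -0.0034, and of -0.0020 in set 2, where it was -0.06. Itgb7, an integrin chain, differed by 0.41 and 0.18, and Emb, the embigin gene, by 0.66 and -0.06. Of 9 members with a peak but below the minimum of 200 counts, 4 were higher and 1 lower in both sets. Cd86, a costimulatory ligand, was the lower one, with 16.8 and 27.7 CPM in set 1 and 16.6 and 22.5 CPM in set 2. Cd93, a receptor of early progenitors, had 49.5 and 37.8 CPM in set 1 and 65.2 and 43.5 CPM in set 2, and Plac8 had 22.2 and 19.5 CPM and then 54.5 and 29.5 CPM.

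**Figure D5:**
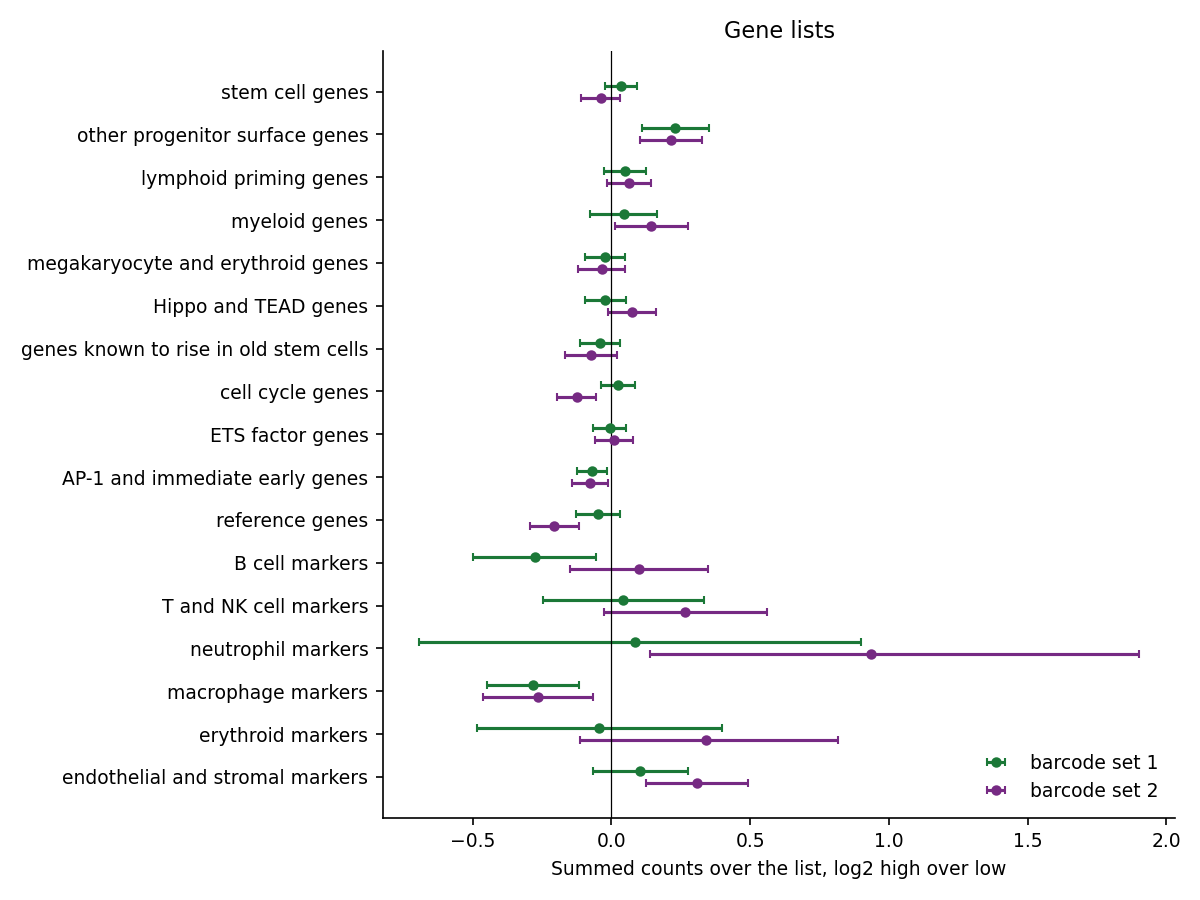
Log2 ratio of high over low cells (horizontal axis) of the counts summed over each gene list (vertical axis), with exact 95% intervals for counting error; green is set 1 and purple set 2. Other progenitor surface genes lie above 0 in both sets (0.23 and 0.22), macrophage markers below 0 in both, and most other lists near 0 or apart between the sets.

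Stem cell genes differed little as a list, by 0.03 (-0.02 to 0.09) in set 1 and -0.04 (-0.11 to 0.03) in set 2, and of 13 tested members 4 were higher and 4 lower in both sets. Mecom, a regulator needed for stem cell maintenance, had 370 CPM in high and 407 CPM in low cells of set 1 and 331 and 334 CPM in set 2. Prdm16 had 364 and 346 CPM in set 1 and 324 and 305 CPM in set 2. Open chromatin at both genes in every pool goes with the LT-HSC label. Meis1, a homeobox partner of HOX proteins, was at 279 and 260 CPM in set 1 (0.10, -0.07 to 0.28) and 340 and 273 CPM in set 2 (0.31, 0.13 to 0.50). Hlf, a transcription factor of immature stem cells, had 107 and 110 CPM in set 1 and 94.2 and 106 CPM in set 2. Procr, the gene of the EPCR receptor, had only 7.11 to 15.9 CPM, and Ly6a, the gene of Sca-1, had no called peak although the gate requires its protein.

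Kit, Gata2 and Tal1 differed in sign between the sets, as did 2584 of all 5494 tested loci. Kit, the stem cell factor receptor, lies on chromosome 5. Kit had 123 and 90.3 CPM in high and low cells of set 1 (log2 0.44, 0.16 to 0.74). In set 2 it had 71.1 and 110 CPM (-0.62, -0.99 to -0.28). Gata2 had 172 and 163 CPM in set 1 (0.07, -0.15 to 0.30) and 107 and 140 CPM in set 2 (-0.39, -0.69 to -0.10). Tal1 had 130 and 98.0 CPM in set 1 (0.41, 0.14 to 0.69) and 74.7 and 89.8 CPM in set 2 (-0.26, -0.63 to 0.10). The high pools of these 3 genes exceeded the low pools in set 1 and were exceeded by them in set 2, a contrast that was not tested.

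Lymphoid priming genes differed by 0.05 (-0.02 to 0.12) and 0.06 (-0.02 to 0.14), with 2 of 8 tested members higher and 3 lower in both sets. Dntt, which encodes the template-independent polymerase of lymphoid progenitors, was under the count minimum and had 31.0 and 18.9 CPM in set 1 (0.69, 0.10 to 1.36) and 33.8 and 14.04 CPM in set 2 (1.21, 0.51 to 2.08). Ltb, the lymphotoxin beta gene, also under the minimum, had 58.3 and 41.3 CPM in set 1 and 62.8 and 45.6 CPM in set 2. Of the 9 members with a peak below the minimum these 2 were higher in both sets and Ikzf3 lower in both, at 52.4 and 60.8 CPM in set 1 and 50.98 and 56.9 CPM in set 2. Ikzf1, the lymphoid regulator Ikaros, had 98.6 and 115 CPM in set 1 and 138 and 156 CPM in set 2, and Notch1 had 148 and 143 CPM in set 1 and 178 and 142 CPM in set 2.

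Myeloid genes differed by 0.04 (-0.08 to 0.16) in set 1 and 0.14 (0.01 to 0.27) in set 2, with 0 of 3 tested members higher and 1 lower in both. Csf1r, the receptor for macrophage colony-stimulating factor, was under the count minimum and had 59.97 and 34.2 CPM in set 1 (0.79, 0.36 to 1.27) and 72.9 and 42.8 CPM in set 2 (0.75, 0.31 to 1.24). Of the 13 members with a peak below the minimum, 3 were higher and 1 lower in both sets. Klf4, a factor of monocyte differentiation, went the other way, at 78.4 and 106 CPM in set 1 (-0.43, -0.73 to -0.13) and 62.8 and 103 CPM in set 2 (-0.71, -1.09 to -0.35). Spi1, the gene of PU.1, had 117 and 93.9 CPM in set 1 (0.31) and 94.8 and 107 CPM in set 2 (-0.17), so in set 2, where distal PU.1 words were higher in high cells, the Spi1 locus was not. Cebpa, a driver of granulocyte fate, had 34.4 and 38.4 CPM in set 1 and 69.9 and 40.0 CPM in set 2.

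Megakaryocyte and erythroid genes differed by -0.02 and -0.04, with 3 of 8 tested members higher and 4 lower in both sets. Cd9, a tetraspanin of platelets, was lower in both, at 69.2 and 92.1 CPM in set 1 and 66.4 and 94.8 CPM in set 2. Vwf, the von Willebrand factor gene that marks platelet-biased stem cells, had 124 and 129 CPM in set 1 and 101 and 133 CPM in set 2. Itgb3 had 107 and 95.04 CPM in set 1 and 110 and 82.1 CPM in set 2. Genes known to rise in old stem cells differed by -0.04 (-0.11 to 0.03) and -0.07 (-0.17 to 0.02), with 2 of 7 tested members higher and 3 lower in both. Clca3a1, the gene of the sorting marker, had 19.7 and 23.6 CPM in set 1 and 12.4 and 14.7 CPM in set 2, under the count minimum.

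Hippo and TEAD genes differed by -0.02 (-0.09 to 0.05) and 0.07 (-0.01 to 0.16), and 2 of 9 tested members were higher and 3 lower in both sets. Wwtr1, the gene of the coactivator TAZ, had 124 and 141 CPM in set 1 (-0.19, -0.44 to 0.06) and 123 and 83.5 CPM in set 2 (0.56, 0.23 to 0.90). Yap1, its paralog, had 17.2 and 12.4 CPM in set 1 and 12.4 and 17.5 CPM in set 2. Amotl2, a target of TAZ and YAP, had 146 and 169 CPM in set 1 and 71.1 and 83.5 CPM in set 2. Tead3 had 107 and 90.9 CPM in set 1 and 101 and 73.7 CPM in set 2.

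Cell cycle genes, the group nearest to what Cdk6 does, differed by 0.02 (-0.04 to 0.09) in set 1 and -0.12 (-0.20 to -0.05) in set 2, with 3 of 13 tested members higher and 4 lower in both. Ccnd1, the cyclin D1 gene, was higher in both sets, at 76.7 and 58.4 CPM in set 1 (0.39, 0.03 to 0.76) and 93.1 and 70.2 CPM in set 2 (0.40, 0.04 to 0.78). Ccnd2 had 205 and 216 CPM in set 1 and 156 and 196 CPM in set 2, and Ccnd3 had 365 and 368 CPM in set 1 and 332 and 404 CPM in set 2. Myc was lower in both, at 121 and 146 CPM in set 1 and 122 and 146 CPM in set 2. The cyclin D genes thus did not share a direction. ETS factor genes differed by -0.01 and 0.01, with 4 of 11 tested members higher and 3 lower in both.

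AP-1 and immediate early genes, which respond within minutes to stimulation and to cell handling, differed by -0.07 (-0.12 to -0.01) and -0.08 (-0.14 to -0.01). Of 13 tested members, 3 were higher and 4 lower in both sets. Fosb was lower in both, with 211 and 261 CPM in set 1 (-0.30, -0.49 to -0.12) and 207 and 296 CPM in set 2 (-0.52, -0.73 to -0.31). Jund had 270 and 249 CPM in set 1 and 186 and 270 CPM in set 2. Reference genes, broadly expressed and with promoters open in most cells, differed by -0.05 (-0.13 to 0.03) in set 1 and -0.21 (-0.29 to -0.12) in set 2, where promoter counts were lower in high cells.

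Of the defining markers of other blood and marrow cells, some had no called peak and others had counts in all pools. Neutrophil markers summed to 15.1 and 14.2 CPM in set 1 and 23.7 and 11.9 CPM in set 2, and Ly6g and Camp had no called peak. B cell markers summed to 153 and 185 CPM in set 1 and 180 and 168 CPM in set 2, mostly at Pax5 and Ebf1, with no called peak at Ms4a1 and Cd79a at or below 0.593 CPM. T and NK cell markers summed to 103 and 99.8 CPM and to 139 and 116 CPM, with no called peak at Cd3e, Cd3g or Cd8a, while Lck had 71.6 to 77.9 CPM and Cd3d 19.5 to 45.6 CPM over the 4 pools. Erythroid markers summed to 44.0 and 45.5 CPM and to 59.9 and 47.0 CPM, with no called peak at Hba-a1, Slc4a1 or Alas2. Macrophage markers summed to 269 and 328 CPM in set 1 (-0.28) and 246 and 295 CPM in set 2 (-0.26), of which Cd68 had 184 and 234 CPM and 165 and 220 CPM, while C1qa and C1qb had no called peak and Adgre1 was at 1.18 to 6.52 CPM. Endothelial and stromal markers summed to 298 and 277 CPM in set 1 (0.10) and 360 and 291 CPM in set 2 (0.31), with Pecam1 at 97.3 to 123 CPM, Kdr at 43.5 to 67.9 CPM, Pdgfrb at 27.2 to 53.3 CPM and Lepr at 0 to 3.54 CPM. Whether a few such cells were part of these differences was not tested.

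Single peaks outside the scoring loci were read last. Of 13770 peaks with at least 60 counts in each set, 154 (1.12%) were at least 1.5-fold higher and 111 (0.806%) at least 1.5-fold lower in high cells of both sets. Outside promoters, 2.24% of 4376 peaks were higher and 1.07% lower, and in promoters 0.596% of 9394 were higher and 0.681% lower. On chromosome 5, 1.956% of 869 peaks were higher and 0.115% lower.

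From the peaks past the fold, 6 are shown by their central 200 bases, written as above, to give the sequences behind these differences. They lead the order by the smaller difference of the 2 sets among peaks outside UTRs, a choice made after their values were seen. Peaks over a UTR, such as those at Zc3hc1 (1.15 and 2.07), Slc39a11 (1.14 and 1.41), Btg2 (-1.42 and -1.19) and Plxna2 (-1.08 and -1.22), stood higher in that order than some of those shown. The first 3 sequences were more open in high cells.
Padi1, chr4:140816363-140816562: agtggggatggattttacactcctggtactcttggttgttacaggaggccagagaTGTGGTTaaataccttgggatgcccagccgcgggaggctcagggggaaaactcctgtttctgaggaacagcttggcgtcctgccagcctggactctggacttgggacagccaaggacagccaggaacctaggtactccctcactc
Grk5, chr19:61084288-61084487: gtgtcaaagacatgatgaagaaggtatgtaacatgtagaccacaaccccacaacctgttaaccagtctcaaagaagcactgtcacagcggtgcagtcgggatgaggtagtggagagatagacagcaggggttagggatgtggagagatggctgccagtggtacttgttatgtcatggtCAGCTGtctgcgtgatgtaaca
Gm10722, chr9:3004503-3004702: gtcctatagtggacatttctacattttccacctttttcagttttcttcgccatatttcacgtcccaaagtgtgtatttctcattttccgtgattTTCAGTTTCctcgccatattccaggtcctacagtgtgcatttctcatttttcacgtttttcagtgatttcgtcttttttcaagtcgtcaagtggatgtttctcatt
The Padi1 peak, 5815 bp from the nearest start and overlapping an exon of this peptidylarginine deiminase gene, held a RUNX word and had 22.2 and 5.90 CPM in high and low cells of set 1 and 48.6 and 11.9 CPM in set 2 (log2 1.75 and 1.94). The peak in the body of Grk5, which encodes a G protein-coupled receptor kinase, held an E-box and had 22.2 and 5.90 CPM in set 1 and 45.05 and 14.04 CPM in set 2 (1.75 and 1.61). The Gm10722 peak is 9599 bp long with 94.7% soft-masked bases, held an IRF word and had 78.0 and 27.2 CPM in set 1 and 99.6 and 44.9 CPM in set 2 (1.49 and 1.13), and 1 cell gave 46.2% of its counts in the high pool of set 1.

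The last 3 sequences were less open in high cells.
nearest Bcas1, chr2:170319239-170319438: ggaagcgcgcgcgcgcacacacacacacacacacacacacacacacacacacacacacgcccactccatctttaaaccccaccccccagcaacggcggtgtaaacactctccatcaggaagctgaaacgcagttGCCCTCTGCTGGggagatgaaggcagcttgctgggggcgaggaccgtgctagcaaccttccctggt
nearest Otud7a, chr7:63816201-63816400: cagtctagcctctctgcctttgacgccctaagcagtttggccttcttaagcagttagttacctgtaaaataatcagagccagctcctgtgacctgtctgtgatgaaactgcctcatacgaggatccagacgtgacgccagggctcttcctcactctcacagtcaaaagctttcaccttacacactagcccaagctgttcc
Rasa3, chr8:13600699-13600898: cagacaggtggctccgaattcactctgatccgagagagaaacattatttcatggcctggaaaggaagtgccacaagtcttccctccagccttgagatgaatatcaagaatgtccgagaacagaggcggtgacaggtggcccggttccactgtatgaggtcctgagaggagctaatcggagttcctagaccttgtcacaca
The peak nearest Bcas1, 27652 bp from the gene, held a CTCF word and had 9.65 and 34.2 CPM in high and low cells of set 1 and 14.2 and 33.7 CPM in set 2 (log2 -1.73 and -1.19). The peak nearest Otud7a, 57273 bp from the gene, held none of the words and had 31.9 and 60.8 CPM in set 1 and 14.2 and 33.7 CPM in set 2 (-0.91 and -1.19). The peak in the body of Rasa3, which encodes a Ras GTPase-activating protein, held none of the words and had 19.7 and 47.2 CPM in set 1 and 33.8 and 61.1 CPM in set 2 (-1.22 and -0.84). Among the other high peaks were sites outside promoters in Chn2, Jakmip1, Nav2 and Ski and near Tnfaip3, a regulator of NF-kappa B signaling, the last with 23.9 and 11.8 CPM in set 1 and 59.9 and 30.2 CPM in set 2. Among the other low peaks was a site in Btg2, an antiproliferative gene, with 28.5 and 77.9 CPM in set 1 and 21.3 and 49.8 CPM in set 2.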

How the data were processed

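Single-cell ATAC-Seq was performed by the authors with the 10x Genomics assay, and per the labels the reads were processed with Cell Ranger ATAC 1.2.0 against mm10 (GRCm38). The deposited tables hold raw counts of transposase cuts per peak and cell barcode, without normalization. The first of 2 tables (93513 peaks) was taken as the one of the CLCA3A1high and CLCA3A1low libraries, which its name does not state. This table holds 1454 barcodes from 10000 sorted cells per sample and was used. The second was not used here because its peaks carry no names. Cells below the 10th percentile of counts per cell were left out, and the deepest scored cell had 136173 counts. The 2 samples were not separated, since no label maps barcode suffixes to them, and the table was treated as 1 sample without replicates: no p-value is given.

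Counts were summed per pool and divided by the pool total (CPM), and log2 ratios used a pseudocount of 1 CPM. Loci were GENCODE M21 protein-coding genes plus 5000 bp upstream, with at least 200 counts per set, and a peak could count for several overlapping loci. Peaks within 1000 bp of a protein-coding start counted as promoter peaks. Shares and ratios have exact 95% Clopper-Pearson or conditional binomial intervals, and CPM values exact Poisson intervals. Words were searched in RefSeq GRCm38 sequence. The named loci were the 4 scoring loci, list members, and the 12 loci in each direction with the largest value of the smaller ratio of the 2 sets and the same sign in both, leaving out names starting with Gm or ending in Rik and loci sharing a peak with one already named. The numbered models were named after their values were seen. The members and gene lists were chosen with earlier results of these data known.

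Alternatives covered depth, counting, scaling, thresholds and the scoring loci. Further ones were chosen after seeing the data: scoring by 1 chromosome, leaving out cells rich in chromosome 5 or promoter counts, leaving out the top cell per locus, and word searches in the centres of distal peaks. Scripts were tested on simulated data. Python 3.11.15, numpy 2.4.6, scipy 1.17.1, pandas 2.3.3 and matplotlib 3.10.9 were used.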

Additional observations from a re-analysis of the deposited data

Results flagged for a closer look

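The named genes examined were the tested list members and the loci ranked in each direction, 119 in all. Of these, 2 differed between high and low cells in opposite directions in the 2 barcode sets, with both counting intervals clear of 0. That is 1.68%, against 2.40% of all 5494 tested loci. The ranked loci had the same sign in both sets by choice and could not be among the 2, so the shares are not alike. Jun, an AP-1 factor gene that responds early to stimulation, was at -0.244 on the log2 scale in set 1 (273 CPM in high and 324 CPM in low cells) and at 0.247 in set 2 (293 and 247 CPM). Kit, the stem cell factor receptor gene, was at 0.445 in set 1 and at -0.624 in set 2. The difference between the sets was not tested, the sets have no replicates, and which sorted sample each set comes from was not given.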

How the results depend on the processing

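No paired analysis was possible because each group has 1 sample, and the replicate number that the labels share between the young and old samples is not carried by the columns used. Leaving out each replicate in turn was not possible for the same reason.

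The counts of loci past 1.5-fold in both sets, 19 higher and 5 lower, moved with most choices. They were 0 and 0 of 543 tested with cells thinned to equal depth, 0 and 0 of 639 with each peak counted once per cell (5494 were tested before), 4 and 3 with ranking within 5 bins of depth, 9 and 0 at a minimum of 500 counts, 109 and 71 at 50 counts, 5 and 1 with 3 bins, 5 and 2 without Flt3, 1 and 3 without Cdk6, 96 and 119 at a lower fold limit, and 4 and 0 at 2-fold. The higher count was 12 with the mean of CPM per cell. The lower count was 3 with a pseudocount of 5 CPM, 1 with 10 bins, 9 in promoter peaks only and 1 with median-of-ratios scaling. Among alternatives chosen after seeing the data, the counts were 1 and 2 with Cd34 and Cd48 scoring, 2 and 3 without cells rich in chromosome 5, and 9 and 2 without the top cell of each pool, and the lower count was 3 with Flt3 and Cdk6 scoring and 2 without cells over 65% promoter counts.

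The chromosome 5 difference (0.189 and 0.124) was 0.078 and 0.105 thinned, 0.218 and 0.0608 in depth bins, 0.13 and 0.0747 with each peak counted once, 0.152 and 0.0543 with 3 bins, 0.207 and 0.179 with 10 bins, 0.116 and 0.0534 without Flt3, 0.128 and 0.0831 without Cdk6, and 0.0624 and 0.0999 without cells rich in chromosome 5. In set 1 it was 0.124 with the mean of CPM and 0.176 without cells over 65% promoter counts. In set 2 it was 0.0895 without cells over 3 times the median counts, 0.107 without Cd34 and 0.109 with Flt3 and Cdk6 only. With Cd34 and Cd48 only it was 0.00644 in set 1 and turned to -0.0441 in set 2.

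Thinned, the left-out loci moved to 0.654 for Flt3, 2.02 for Cd34 and 0.102 for Cdk6 in set 2 and to 1.54 for Cd48 in set 1, without a change of direction. The promoter difference was 0.31 and -2.59 percentage points thinned (0.0495 and -4.23 before), -0.211 and -2.27 without cells over 65% promoter counts, and -3.70 in set 2 with a window of 5000 bp. The GC difference in set 2, -0.334 percentage points, was -0.149 without those cells. The number of words past the largest backward word, 0 in both sets, was 4 and 4 in the central 300 bp of all peaks. It was 1 and 1 in those outside promoters, and 1 and 3 there with thinned cells, both without a value for the backward CTCF word. In set 2 the number was 1 in whole peaks outside promoters and 1 without cells over 65% promoter counts.

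Among named loci, Sfi1 in set 1 turned to -0.272 thinned, -0.0491 with each peak counted once and -0.0737 with Cd34 and Cd48 scoring. Under that scoring Rabgef1 turned to -0.0455 and -0.125, Art3 to -0.0305 in set 1, Egln3 to -0.0524 and Rab2b to 0.111 in set 2. Egln3 in set 1 turned to -0.228 without Flt3. Oxsr1 in set 1 went from -0.552 to 0.338 thinned. Among the chromosomes of set 2, chromosome 5 had rank 2 thinned, with each peak counted once and with 3 bins, and rank 3 in depth bins, without cells over 3 times the median counts and without Flt3. The causes were not tested.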
